A study of Mus musculus with 10 samples.

Results

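The shell of the nucleus accumbens, in the ventral striatum, has a lateral and a medial region. Genes of newly formed and progenitor-stage neurons were followed in tissue cut from each, with 5 libraries of the lateral and 5 of the medial shell, of mice given as WT in the labels, with no treatment, age or sex stated. The genes were chosen by name, with their values in this comparison already known: Sox11, Sox4, Dcx, Cd24a, Igfbpl1, Dlx1, Dlx2, Dlx6os1 and Nes. Of these 9 genes, 8 have values in the table of 20483 genes, and Nes (nestin, a filament of progenitors) was not analysed here. Values are TPM, transcript abundance scaled to gene length and to the library total, so levels of different genes can be set side by side within a library. The labels call the samples biological replicates without saying whether each came from its own animal, so the spread between libraries may be partly technical. In such tissue pieces, fewer cells of a type and less RNA per cell cannot be told apart.

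In the forebrain, neurons that form after birth come mainly from the wall of the lateral ventricle, beside the striatum. Progenitors there pass through a dividing stage to neuroblasts, which migrate as chains and then mature into GABAergic neurons. DLX homeodomain proteins set the GABAergic fate, SOX proteins of the C group (SOX4 and SOX11) act as the cells leave the cell cycle and turn on neuronal genes, and doublecortin and CD24 are widely used to label the migrating cells. Several of these genes are also used by mature striatal neurons or by glia, so none of them alone marks a neuroblast.

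The tissue label was set against neuron markers, which speak to striatum and cannot tell the shell from other striatum or lateral from medial. The summed level of 9 spiny projection neuron markers was 3440 to 5825 TPM in the lateral and 3304 to 5490 TPM in the medial libraries. Of 5 listed glutamatergic neuron markers, the 2 with values summed to at most 3.31 TPM. Mitochondrially encoded genes took 23.5% to 35.3% of a library, and 15402 to 17003 genes were above 0. Lateral replicate 5 and medial replicate 2 stand apart: the transcript AY036118 was at 1.38 and 1.42 TPM there, against 82500 to 144263 TPM elsewhere. Some abundant genes were also at 0 (20 of the 4272 whose mean reached 20 TPM), so a 0 below is given as listed at 0.

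Sox11 was higher in the medial shell. Its level was 7.11, 6.07, 12.4, 13.9 and 14.1 TPM in lateral replicates 1 to 5 and 18.0, 24.4, 40.4, 29.2 and 46.0 TPM in the medial replicates 1 to 5. Every medial library stood above every lateral one. The means were 10.7 ± 3.85 TPM (SD, n = 5) in lateral and 31.6 ± 11.5 TPM (SD, n = 5) in medial libraries, a medial level 2.95 times the lateral one. On the log2(TPM + 1) scale the difference, lateral minus medial, was -1.47 with a standard error of 0.31 (95% interval -2.13 to -0.81). Since Sox11 was chosen with this difference known, it is given as a description.

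Over all 15596 genes tested with limma (at least 1 TPM in 5 of the 10 samples), 60 were called higher in lateral and 171 higher in medial at an adjusted p under 0.05. With median-ratio scaling between libraries these counts were 88 and 82, and with quantile normalization 86 and 100. Of the 7 chosen genes that met the filter, 1 was called, Sox11, higher in medial. Of all genes tested, 1.10% were called in that direction, 0.385% in the other and 1.48% in either. Sox11 was likewise the only chosen gene whose groups did not overlap, against 3.39% of all genes tested with every medial value above every lateral one, 0.859% with the reverse and 4.25% in either direction. Nothing is read from these counts, because the choice of genes used the same comparison. The median log2 fold change of all genes tested was -0.21, -0.02 with median-ratio scaling and 0.00 with quantile normalization. Relative to that median, Sox11 was at -1.26 as deposited, -1.24 with median-ratio scaling and -1.25 with quantile normalization. The call did not hold under either of those scalings, without a mean-variance trend, without both AY036118-low libraries, or when lateral replicate 1 or 2, or any of medial replicates 2 to 5, was left out alone, while the log2 fold change over all 22 alternatives ran from -1.65 to -1.20.

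**Figure D1:**
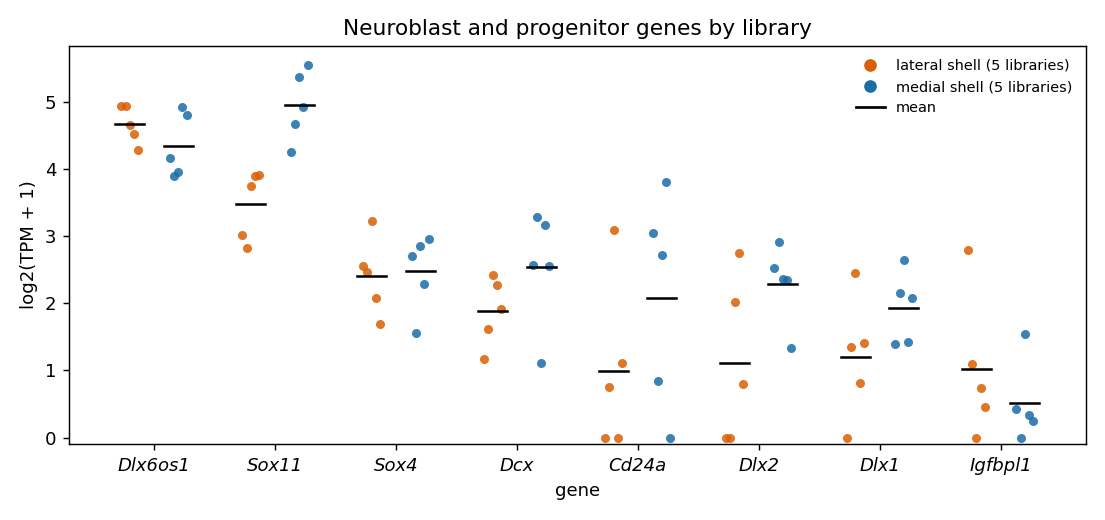
Level of each chosen gene, as log2(TPM + 1), in the 5 lateral (orange) and 5 medial (blue) libraries, with a bar at the mean of each group. Only the groups of Sox11 are separate, with means of 10.7 and 31.6 TPM, while the points of the other 7 genes overlap.

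Sox4, the closest relative of Sox11 in the C group and likewise a transcriptional activator of neuronal genes, overlapped between the regions. It was at 4.85, 4.55, 8.36, 3.21 and 2.23 TPM in lateral replicates 1 to 5 and at 5.50, 1.94, 6.25, 3.89 and 6.77 TPM in the medial replicates 1 to 5. The lowest value was medial and the highest lateral. The means were 4.64 ± 2.33 and 4.87 ± 1.96 TPM (SD, n = 5 each), and the log2 fold change was -0.07 with a 95% interval of -0.90 to 0.76, which takes both signs. Sox11 was above Sox4 in all 10 libraries, by 1.33 to 6.32 times in lateral and 3.28 to 12.5 times in medial libraries. These ratios, which do not depend on the scaling between libraries, overlapped between the regions. They rest on a Sox4 level that may hold reads of an opposite-strand gene, as given below with Dlx1.

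Both genes have a single exon, and their start regions are shown because the groups of Sox11 were separate and those of its paralog Sox4 were not. Sox11 lies on chromosome 12 (27334264 to 27342574, minus strand, GRCm38) and Sox4 on chromosome 13 (28948919 to 28953713, minus strand). The RefSeq windows from 250 bases before to 50 bases after the start are at chr12:27342669-27342968 and chr13:28953650-28953949 on GRCm38.p6, both on the minus strand, written 5′ to 3′ with each CCAAT or its reverse complement in capitals. The RefSeq start of Sox11 lies upstream of the GENCODE gene, so its window is wholly outside that gene model, while the Sox4 window overlaps its own.
Sox11: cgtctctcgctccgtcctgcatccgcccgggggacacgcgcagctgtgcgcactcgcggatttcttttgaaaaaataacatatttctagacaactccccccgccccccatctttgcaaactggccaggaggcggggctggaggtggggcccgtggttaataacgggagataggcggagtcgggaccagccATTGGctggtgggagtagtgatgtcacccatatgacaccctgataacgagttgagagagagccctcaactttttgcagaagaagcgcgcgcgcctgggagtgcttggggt
Sox4: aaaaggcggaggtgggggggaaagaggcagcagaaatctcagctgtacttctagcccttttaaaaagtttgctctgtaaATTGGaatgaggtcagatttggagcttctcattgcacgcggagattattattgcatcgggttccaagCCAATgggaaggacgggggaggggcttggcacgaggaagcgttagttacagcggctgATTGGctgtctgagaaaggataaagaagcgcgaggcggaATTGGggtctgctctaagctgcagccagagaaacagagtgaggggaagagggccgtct
The Sox11 window holds 1 CCAAT match and the Sox4 window 4, on either strand, and 37.4% of 32851 windows of this length hold at least 1. The letters of a SOX motif (ACAAAG, in 18.7% of windows), a homeodomain motif (TAATTA, 5.29%) and a TATA box (TATAAA, 13.6%), each searched on both strands, are in neither window. The Sox11 window has 21 CpG dinucleotides and the Sox4 window 12, against a median of 7. A match is a description of letters and not a binding site.

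Dcx encodes doublecortin, the microtubule-binding protein of migrating neurons (chromosome X, 143855842 to 143933311, minus strand). It was at 1.25, 2.07, 4.33, 3.84 and 2.76 TPM in the lateral and 4.91, 8.73, 1.16, 7.93 and 4.88 TPM in the medial replicates 1 to 5. Of the medial libraries 4 were above all lateral ones, and medial replicate 3 was below all of them. The means were 2.85 ± 1.26 and 5.52 ± 3.00 TPM (SD, n = 5 each), with a log2 fold change of -0.66 (95% interval -1.61 to 0.30), and -0.38 with a pseudocount of 5.

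Cd24a encodes a glycosylated surface protein of neuroblasts that ependymal cells also carry (chromosome 10, 43578284 to 43584265, plus strand). Its lateral values were listed at 0, 0.69, 7.48, 0 and 1.16 TPM and its medial values at 7.22, 0.78, 5.57, 12.9 and 0 TPM. Both regions held libraries at 0 and libraries above 5 TPM. Its spread within groups, a residual SD of 1.44 on the log2 scale, was the widest of the 7 genes tested and compares with a median of 0.55 over all genes tested. The log2 fold change was -1.09 (95% interval -2.76 to 0.58), and -1.86 and -0.52 with pseudocounts of 0.1 and 5. Igfbpl1, a secreted protein related to the insulin-like growth factor binding proteins (chromosome 4, 45809468 to 45826923, minus strand), was at 5.93, 1.14, 0, 0.67 and 0.37 TPM in the lateral and 0.34, 0, 1.92, 0.26 and 0.19 TPM in the medial replicates 1 to 5. It reached 1 TPM in 2 lateral libraries and 1 medial library, so it did not meet the filter and has no fitted difference.

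Dlx1 and Dlx2 are neighbours on chromosome 2 and encode the homeodomain proteins that act early in the GABAergic lineage. Dlx2 (71543408 to 71546754, minus strand) was listed at 0, 0, 3.06, 5.74 and 0.75 TPM in the lateral and 4.77, 6.49, 4.13, 4.08 and 1.51 TPM in the medial replicates 1 to 5. All 5 medial libraries were above 1 TPM, and 2 of the 5 lateral ones were. Its log2 fold change was -1.18 (95% interval -2.40 to 0.05), and -2.50 and -0.46 with pseudocounts of 0.1 and 5. Dlx1 (71528113 to 71533981, plus strand) was at 0, 1.55, 4.46, 0.76 and 1.65 TPM in the lateral and 1.62, 3.43, 5.24, 1.69 and 3.23 TPM in the medial replicates 1 to 5, with overlapping groups. Its log2 fold change was -0.73 (95% interval -1.78 to 0.32), and -1.48 and -0.28 with those pseudocounts. Dlx1 shares 335 exon bases with Dlx1as on the opposite strand, which was at 0 to 1.16 TPM in the lateral and 0 to 2.97 TPM in the medial libraries. Whether counting used strand is not stated in the labels, so reads of such partners cannot be told apart. The same holds for Sox4, of which 2616 exon bases lie opposite the noncoding gene Gm26735, not analysed here.

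Dlx6os1 is a long noncoding RNA transcribed across the Dlx5 and Dlx6 region (chromosome 6, 6820189 to 6871592, minus strand). It was the most abundant of the chosen genes on average, at 29.5, 29.5, 24.3, 21.9 and 18.4 TPM in the lateral and 16.9, 13.9, 14.5, 29.3 and 27.0 TPM in the medial replicates 1 to 5. Both regions reached 29 TPM, and the lowest 3 libraries were medial. The means were 24.7 ± 4.84 and 20.3 ± 7.29 TPM (SD, n = 5 each), with a log2 fold change of 0.32 (95% interval -0.23 to 0.86). Of the 7 genes tested it alone had a higher fitted value in lateral. Its opposite-strand partner Dlx6, whose exons it does not share in GENCODE M21, was at 24.5 ± 11.3 and 17.7 ± 5.70 TPM, and Dlx5 was at 30.6 ± 12.2 and 27.6 ± 7.45 TPM, in lateral and medial libraries respectively (SD, n = 5 each). So the noncoding RNA and both homeobox genes beside it stood at overlapping levels in the regions, while Dlx1 and Dlx2 stood several times lower. On the opposite strand Dlx6os1 shares 180 exon bases with Gm27699 and 207 with Gm27905, neither analysed here. The limit on strand given for Dlx1 and Sox4 therefore applies to Dlx6os1 as well.

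Ordered by mean level over the 10 libraries, the chosen genes ran from Dlx6os1 (22.5 TPM) and Sox11 (21.2 TPM) to Sox4 (4.75 TPM), Dcx (4.19 TPM), Cd24a (3.58 TPM), Dlx2 (3.05 TPM), Dlx1 (2.36 TPM) and Igfbpl1 (1.08 TPM). Dlx6os1 and Sox11 traded places between the regions: Dlx6os1 was above Sox11 in 5 of 5 lateral libraries and in 1 of 5 medial ones. The ratio of Sox11 to Dlx6os1 was 0.21 to 0.77 in lateral and 0.99 to 2.78 in medial libraries, with no overlap. Because Sox11 was chosen with its difference between the regions known, this separation is a description only. It was not set against ratios of other genes, and the ratio of Sox11 to Sox4 overlapped. From Sox4 down to Dlx1, each gene was above the next in 4 to 6 of 10 libraries, so that part of the order is not separated by the spread. Dlx1 was above Igfbpl1 in 9 of 10 libraries.

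**Figure D2:**
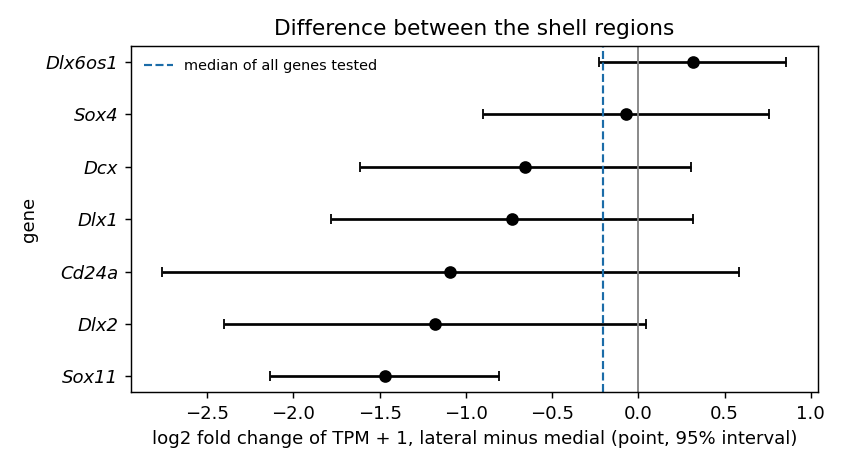
Log2 fold change of TPM + 1, lateral minus medial, for the 7 chosen genes tested, with 95% intervals from limma and a dashed line at the median of all genes tested (-0.21). The interval of Sox11 (-2.13 to -0.81) is the only one that lies wholly below that line and below 0.

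Across the 7 genes tested, 6 had lower fitted values in lateral and 1 higher, with a median of -0.73 beside -0.21 over all genes tested, of which 68.7% were lower in lateral. That median was -1.48 and -0.38 with pseudocounts of 0.1 and 5, and -0.48 with quantile normalization or without lateral replicate 1. The sign of Sox4 depended on the setting, at 15 of 21 alternatives below 0 and a range from -0.30 to 0.21. The other 6 genes kept their sign at every alternative that tested them. In libraries where Sox11 was high for its region, the other chosen genes were not uniformly high. Correlations of deviations from the group means with those of Sox11, over 10 libraries and as a description only, were 0.47 for Dlx1, 0.28 for Dlx2, 0.09 for Sox4, -0.01 for Dcx, -0.09 for Cd24a and -0.11 for Dlx6os1. These values come from shared libraries, and those of low genes carry counting error of unknown size.

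The genes whose levels followed Sox11 most closely were found among 9177 named genes whose mean reached 5 TPM. Over the 10 libraries these were Gria2, a subunit of AMPA-type glutamate receptors (Pearson correlation 0.97), Amy1, an amylase (0.97), Atp6v1a, a subunit of the vesicular proton pump (0.96), Gas5, a noncoding host of small nucleolar RNAs (0.95), Ctso, a cysteine protease (0.95), and March1, a ubiquitin ligase (0.95). Gria2 was at 66.8 to 90.8 TPM in the lateral and 95.5 to 133 TPM in the medial libraries. March1 was at 0.68 to 4.39 and 8.40 to 23.1 TPM. For deviations from the group means, which leave out the difference between regions, the closest were Gas5 (0.96), Stt3a (0.96), Pou3f3 (0.93), Abhd17b (0.92), Amy1 (0.91) and Basp1 (0.91). Pou3f3, a POU-domain transcription factor, was at 6.93 and 6.62 TPM on average in lateral and medial libraries, with overlapping groups. The chosen genes themselves were left out of both rankings, and the libraries are shared by all of these correlations. They are the highest of 9177 genes over 10 libraries and were not set against what chance would give, so they are a description only.

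Other genes of the same lineage were taken from lists made by function, though with earlier results of these data known. The counts and p-values of the lists carry that limit. Over all 15596 genes tested, 2399 were at an unadjusted p under 0.05 by limma, beside which the list counts at that threshold stand. Among 17 tested neuroblast and immature neuron genes none was called by limma (2 at an unadjusted p under 0.05), with 12 lower and 5 higher in lateral and a median of -0.25 beside -0.21 over all genes. With median-ratio scaling the list median was -0.04, and without lateral replicate 1 it was -0.45. St8sia4, which makes the polysialic acid of migrating cells, was at 2.95, 2.17, 0.69, 1.86 and 2.38 TPM in the lateral and 3.75, 4.38, 5.10, 5.45 and 3.58 TPM in the medial replicates 1 to 5. Its groups did not overlap, yet it did not pass (log2 fold change -0.90, limma adjusted p = 0.238). Its carrier Ncam1 was at 43.4 ± 15.4 and 62.6 ± 11.7 TPM (SD, n = 5 each, limma adjusted p = 0.341). The guidance receptor gene Robo2 was at 8.04 ± 1.80 TPM in the lateral and 4.32 ± 1.39 TPM in the medial libraries (SD, n = 5 each, limma adjusted p = 0.224), and Nrep was at 16.1 ± 4.43 and 23.3 ± 6.07 TPM (limma adjusted p = 0.343). Tubb3, a neuronal tubulin that mature neurons keep, was at 227 ± 31.9 and 218 ± 53.3 TPM, outside the naming rule and chosen after its values were seen.

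Among the 17 tested transcription factors of the forebrain GABAergic lineage that are reported here, none was called by limma (3 at an unadjusted p under 0.05), with 9 lower and 8 higher in lateral. Their median was -0.04, and 0.14 with median-ratio scaling and 0.20 with quantile normalization. Isl1, a factor of striatonigral and cholinergic neurons, was at 21.2, 7.83, 1.24, 3.81 and 5.31 TPM in the lateral and 8.19, 31.2, 29.3, 18.3 and 31.8 TPM in the medial replicates 1 to 5, with lateral replicate 1 inside the medial range (limma adjusted p = 0.143). Zfp503 was at 4.82 ± 0.89 and 8.15 ± 1.35 TPM with no overlap (limma adjusted p = 0.252), and Bcl11b was at 77.1 ± 18.6 and 55.7 ± 11.9 TPM (SD, n = 5 each, limma adjusted p = 0.323).

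**Figure D3:**
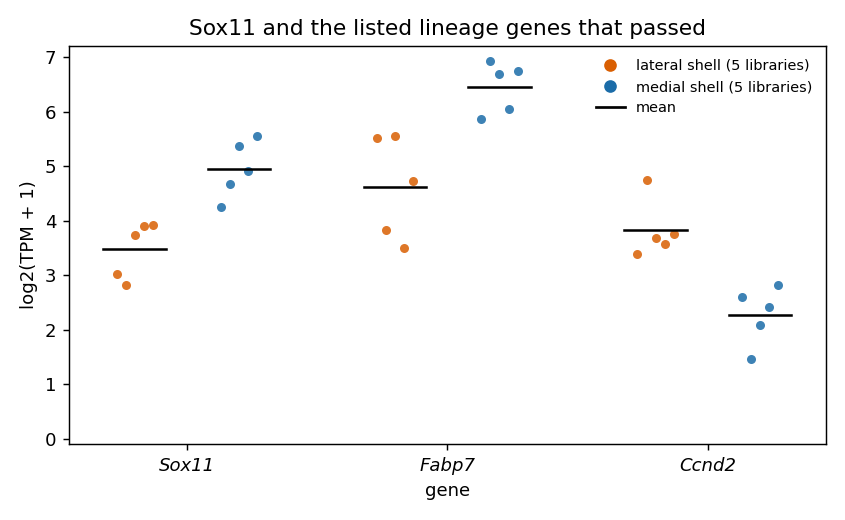
Level, as log2(TPM + 1), of Sox11 and of the 2 listed progenitor genes that passed, in the 5 lateral (orange) and 5 medial (blue) libraries, with a bar at each mean. Sox11 and Fabp7 are higher in medial and Ccnd2 is higher in lateral, and the groups of each gene are separate.

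Among 16 tested neural stem and progenitor genes 2 were called by limma, in opposite directions. Beside them, 1.48% of all genes tested were called in either direction, 1.10% higher in medial and 0.385% higher in lateral. Of the 16, 9 had higher and 7 lower fitted values in lateral, and 5 were at an unadjusted p under 0.05. Fabp7, the brain fatty acid binding protein of radial glia that astrocytes and oligodendrocyte precursors also express, was at 44.6, 13.2, 46.0, 10.3 and 25.6 TPM in the lateral and 57.6, 121, 102, 65.4 and 106 TPM in the medial replicates 1 to 5. Every medial library was above every lateral one, and the log2 fold change was -1.83, its standard error 0.39 and its limma adjusted p 0.0349. Ccnd2, a D-type cyclin of progenitors, was at 9.47, 25.7, 11.9, 11.0 and 12.6 TPM in the lateral and 5.04, 1.76, 3.26, 4.35 and 6.08 TPM in the medial replicates 1 to 5. Every lateral library was above every medial one, and the log2 fold change was 1.55, its standard error 0.34 and its limma adjusted p 0.0401. The Fabp7 call, lost with median-ratio scaling (adjusted p = 0.0633 by limma), held in 9 and the Ccnd2 call in 8 of 22 alternatives, with adjusted p of up to 0.163 and 0.166. Leaving out lateral replicate 2, 4 or 5, or any of medial replicates 2 to 5, ended the call of Fabp7, and leaving out any library but medial replicate 1 ended that of Ccnd2. Sox1, a progenitor factor of the B group that also persists in striatal neurons, was at 6.48 ± 2.15 and 13.6 ± 5.22 TPM (SD, n = 5 each, limma adjusted p = 0.165), and Slc1a3, a glutamate transporter of radial glia and astrocytes, at 70.1 ± 19.9 and 105 ± 22.4 TPM (limma adjusted p = 0.199). The list median was 0.19, against 0.38 with median-ratio scaling, 0.43 with quantile normalization and 0.04 without medial replicate 1. Hes1, a Notch target, did not meet the filter and was named after its values were seen: it was at 0 to 0.32 TPM in the lateral and 0.44 to 7.74 TPM in the medial libraries. Gfap and Id3, also named after their values were seen, had higher means in lateral and were not called. Gfap was at 14.1 ± 14.3 and 3.42 ± 2.33 TPM and Id3 at 69.3 ± 27.2 and 41.5 ± 22.3 TPM (SD, n = 5 each).

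Most genes of dividing cells were low or without values. Of 18 cell cycle genes 10 had values and 4 met the filter, with none called by limma (1 at an unadjusted p under 0.05, list median -0.77). That median was -1.88 and -0.30 with pseudocounts of 0.1 and 5, and -0.47 without medial replicate 5. Ccna2, a cyclin of S and G2 phase, was at 0.53, 0.21, 0.45, 2.30 and 0.21 TPM in the lateral and 2.78, 0.74, 3.51, 1.96 and 2.86 TPM in the medial replicates 1 to 5 (limma adjusted p = 0.316). Ccnb2 (adjusted p = 0.527 by limma) reached at most 5.26 TPM and Mcm6 (0.553) at most 4.17 TPM, with both regions holding libraries at 0. Pcna, which also serves DNA repair in resting cells, was at 26.7 ± 5.09 and 35.8 ± 13.3 TPM (SD, n = 5 each, limma adjusted p = 0.575). Of the genes below the filter, named after their values were seen, Mcm3, a subunit of the replicative helicase, was at 4.30, 2.25, 0, 2.91 and 0.74 TPM in the lateral replicates 1 to 5 and listed at 0 in all 5 medial libraries. Birc5 and Ube2c, which act in mitosis, were likewise listed at 0 in all 5 medial libraries and in 3 of 5 lateral ones. Top2a, Rrm2 and Kif11, also below the filter, went the other way. Their means were 0.15, 0.45 and 0.27 TPM in the lateral and 0.38, 1.17 and 0.63 TPM in the medial libraries.

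Among 9 other Sox genes that were tested none was called by limma (2 at an unadjusted p under 0.05), with 5 lower and 4 higher in lateral. Their median was -0.08, and 0.07 with median-ratio and 0.20 with quantile scaling. Sox8, a glial factor of the E group, was at 17.4 ± 5.35 and 30.0 ± 11.3 TPM (limma adjusted p = 0.243), Sox9 of the same group at 15.7 ± 5.90 and 18.7 ± 7.38 TPM (limma adjusted p = 0.783) and Sox21 at 0 to 2.05 and 0.76 to 4.38 TPM (limma adjusted p = 0.560). Sox1, named above, is also in this list. The log2 fold change of Sox11 (-1.47) lay below that of every other Sox gene tested, of which the lowest was Sox1 (-0.93). That gap was not tested, and Sox11 was chosen with its difference in this comparison known.

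**Figure D4:**
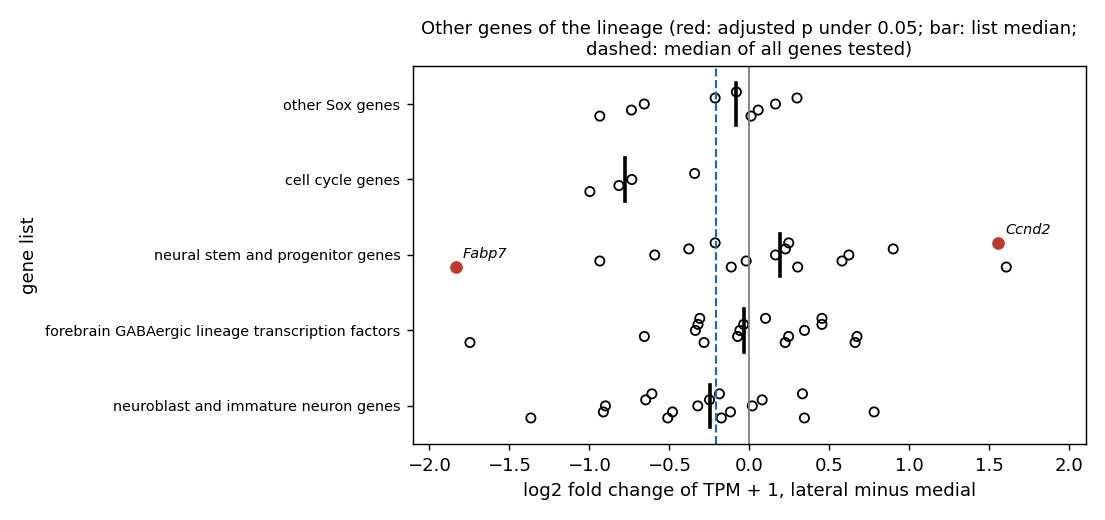
Log2 fold change of TPM + 1, lateral minus medial, of each tested gene in 5 lists of the lineage. Filled red points passed at an adjusted p under 0.05 (Fabp7 and Ccnd2), black bars are list medians and the dashed line is the median of all genes tested (-0.21).

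The label neuroblast was set against the markers of other cells that could hold these transcripts. Ependymal cells line the ventricle beside the zone where neuroblasts arise, and their 6 markers with values summed to 5.85 to 37.0 TPM in the lateral and 4.74 to 25.2 TPM in the medial libraries. Among them Rarres2 was at 1.46 to 12.5 TPM in all 10 libraries, while Ccdc153 was listed at 0 in 4 lateral and all 5 medial libraries. The 3 choroid plexus markers with values summed to 2.44 to 13.2 TPM in the lateral and 2.52 to 11.8 TPM in the medial libraries. Of these, Clic6 was above 0 in all 10 libraries, at 2.44 to 13.2 TPM, and Ttr was listed at 0 in 4 lateral and 4 medial libraries. Oligodendrocyte precursor markers, of which 6 of 7 had higher means in medial, summed to 32.1 to 75.4 TPM in the lateral and 55.7 to 120 TPM in the medial libraries. Astrocyte markers, of which 6 of 8 had higher means in medial, summed to 847 to 1115 and 894 to 1246 TPM. Beside the counts of markers by direction, 68.7% of all genes tested had lower fitted values in lateral. Microglial markers, of which 8 of 8 had higher means in lateral and 3 were called higher in lateral by limma, summed to 370.5 to 577 TPM in the lateral and 173 to 364 TPM in the medial libraries. Of all genes tested, 0.385% were called in that direction. Oligodendrocyte markers, 8 of 8 with higher means in lateral, summed to 298 to 933 and 104 to 448 TPM. Mural cell markers, 7 of 7 with higher means in lateral, summed to 42.4 to 547 and 41.7 to 156 TPM, and blood markers, 4 of 5 with higher means in lateral, to 139 to 4114 and 80.7 to 2563 TPM. The part of these cells in the differences of Sox11, Fabp7 and Ccnd2 was not tested. Endothelial markers summed to 151 to 353 TPM in the lateral and 168 to 264 TPM in the medial libraries, and GABAergic interneuron markers, all 7 with higher means in lateral, summed to 528 to 5699 and 30.0 to 1688 TPM. The values of Dcx, Cd24a, Igfbpl1 and the tested cell cycle genes overlapped between the regions, which does not tell which cells hold these transcripts. Since none of the chosen genes alone marks a neuroblast, the set is called here by its genes and not by a cell type.

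**Figure D5:**
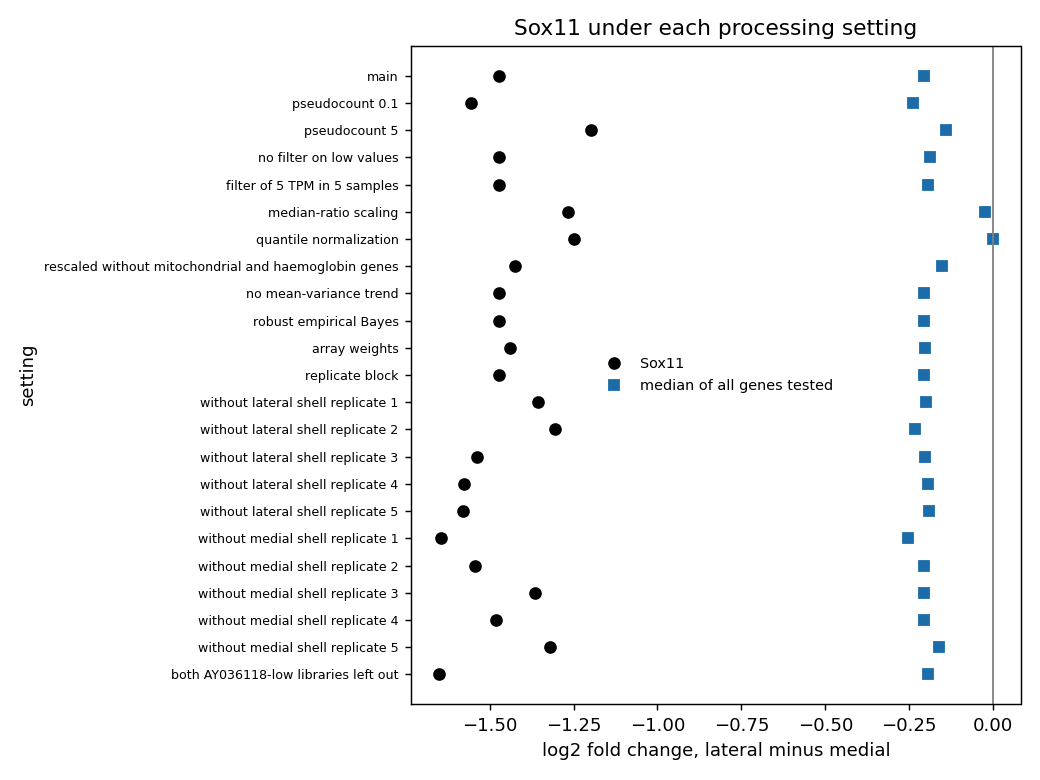
Log2 fold change of Sox11 (black) and the median of all genes tested (blue squares), lateral minus medial, as reported (top) and under 22 alternatives. Sox11 stays between -1.65 and -1.20, while the median of all genes lies near 0 with quantile normalization.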

How the data were processed

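Geo-seq was used to make the complementary DNA, per the labels' protocols: in it, small pieces cut from tissue sections by laser are amplified from low input. Libraries were made with a TruePrep kit. The authors deposited a table of TPM per gene and sample. The build GRCm38 (mm10) and the tools featureCounts 1.6.3, StringTie 1.3.4, HISAT2 2.1.0 and fastp 0.20.0 stand, without roles, in the submitters' processing notes. Neither the annotation nor the use of strand is given there. TPM keeps no depth, so the depth of each library is unknown and no counting interval is given. Coordinates and overlaps come from GENCODE M21 (GRCm38), which holds all 20483 symbols. Promoter windows are RefSeq's (7 of 9 genes matched).

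Differences were fitted with limma 3.58.1 in R 4.3.3 on log2(TPM + 1) with a mean-variance trend, over genes of at least 1 TPM in at least 5 samples, with Benjamini-Hochberg adjustment over all 15596 genes tested and a threshold of 0.05. Log2 fold changes on this scale understate those of low genes. The chosen genes and the lists were picked with earlier results of these data known. Named beside them were the overlapping genes, the 6 genes most correlated with Sox11 by each measure, and from each list the genes that passed, or up to 4 with the smallest p. Some results are not reported here. From the marker lists, summed levels are given. The scripts were tested on simulated data. Alternatives changed the pseudocount, filter, scaling, variance model, weights, replicate block and samples. Figures were drawn with matplotlib 3.10.9.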

Additional observations from a re-analysis of the deposited data

Results flagged for a closer look

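In 5 of 80 groups of 5 libraries examined, 1 library stood apart on the log2(TPM + 1) scale, with a gap to its neighbour above 0.71 of the group's range. Chance flags about 1 in 20 groups. Igfbpl1 was at 1.92 TPM in medial replicate 3, above the other medial libraries. Ccna2 was at 2.30 TPM in lateral replicate 4 and Ccnd2 at 25.7 TPM in lateral replicate 2, each above the other lateral libraries. In lateral replicate 5, which is also low in AY036118, Ncam1 was at 16.5 TPM, below the other lateral libraries, and Pcna at 35.6 TPM, above them.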

How the results depend on the processing

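The count of chosen genes called, 1 as reported, was 0 with median-ratio scaling, quantile normalization, no mean-variance trend or both AY036118-low libraries left out, and 0 to 1 without single libraries. The count over all genes, 231 as reported, was 149 with a pseudocount of 0.1, 145 without a mean-variance trend, 50 without both libraries (fewer samples) and 83 to 255 without single ones. The progenitor genes, 2 called as reported, had 0 with a pseudocount of 0.1, without a filter, without the trend and without both libraries, 1 with median-ratio scaling, and 0 to 2 without single libraries. The lists of immature neuron, GABAergic lineage, cell cycle and other Sox genes had 0 called at every alternative. The cause of these changes in count was not tested, including where fewer samples were fitted. Sox9 changed sign with quantile normalization (2.87e-05).

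Libraries of the same replicate number did not deviate together (correlations of deviations from -0.05 to 0.04), so the numbers were not taken as pairs. The labels do not say whether such libraries shared an animal, and these correlations cannot settle that. A fit with the replicate block left Sox11 called and gave 64 genes in all and 0 progenitor genes.

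Low genes set the limit: Cd24a, Dlx1, Dlx2 and Igfbpl1 were listed at 0 in some libraries, and the depth behind a 0 is unknown.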
